A study of Homo sapiens with 22 samples.

Results

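The zinc finger genes of chromosome 19 were taken as the protein-coding RefSeq genes of GRCh38.p14 on that chromosome whose symbol is ZNF followed by a number only. They numbered 240 of the 1451 protein-coding genes of the chromosome, and the other 1211 genes served as the comparison. Across all chromosomes 477 genes carried such a symbol. The cells were hTERT RPE-1, a human retinal pigment epithelial line immortalised with telomerase, and the assay was chromatin immunoprecipitation sequencing (ChIP-seq) of cohesin, its regulators and the DNA-binding protein CTCF. The labels named 22 samples, 12 of them immunoprecipitations that came with peaks and 10 inputs, which were not analysed here. Every group held 1 library, so differences between libraries carry no replicate check and no p-value was computed.

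Wild-type cells gave the CTCF and WAPL chromatin. All other chromatin came from 2 clones, each 1 clone of hTERT RPE-1 in which NIPBL carries the FKBP12(F36V) degron, a domain through which the small molecule dTAGV-1 directs a protein to degradation. Clone A2 was labelled mCherry-P2A-FKBP12(F36V)-NIPBL and clone D7 mGreenLantern-P2A-FKBP12(F36V)-NIPBL. The controls therefore carried the tag as well. RAD21 was precipitated in both clones after 24 h of DMSO, the solvent, and after dTAGV-1 for 4 h or 24 h. PDS5A was precipitated in clone D7 after DMSO, STAG1 and STAG2 in clone D7 and HA in clone A2, the last 3 with no treatment given in the labels. RAD21 and PDS5A chromatin was mixed with about 10% of chromatin from mouse NIH/3T3 cells, and the cells were asynchronous. The clones are not replicates of each other. Marker genes of the cell type could not be read from peak lists.

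Zinc finger proteins of this kind bind DNA through tandem C2H2 fingers, and many of those encoded on chromosome 19 also carry a KRAB domain. The KRAB domain recruits TRIM28, which brings in the histone methyltransferase SETDB1 and HP1 proteins, and the complex silences transposable elements and other targets. The genes arose largely by tandem duplication and lie in clusters. Cohesin is a ring complex that holds and extrudes chromatin loops: RAD21 is its kleisin subunit, STAG1 and STAG2 are alternative accessory subunits, NIPBL drives its loading and movement, and PDS5A and WAPL act in its release. CTCF, itself a zinc finger protein but encoded elsewhere, stops cohesin at its binding sites.

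A peak was assigned to a gene when its summit lay within the gene or within 1 kb of it. Summits within 1 kb of either gene boundary were called gene-end peaks and the rest interior peaks. By this measure 173 of the 240 zinc finger genes (72.1%) held a peak in at least 1 of the 12 lists and 67 held none; 388 of the 1211 other genes (32.0%) held none. Zinc finger genes were longer, with a median of 23.1 kb against 12.8 kb. Gene windows can overlap, so a peak may count at several genes: of 95 peaks of the clone D7 DMSO RAD21 list at zinc finger genes, 5 lay at more than 1 of them and 9 also at another gene. Intervals below are 95% intervals, Wilson for a share, Newcombe for a difference of shares and exact for a density. They cover counting error only, since genes and peaks of 1 library are not replicates.

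Sequences of 6 promoters are shown first, because each holds a summit of the kind of peak discussed below and the letters under that summit differ between them. They are RefSeq windows of GRCh38.p14 from 250 bases before to 50 after a listed transcription start, written 5′ to 3′ along the gene. Capitals mark the 21 bases centred on the summit, or fewer at the edge of the window. ZNF256 (chr19:57947657-57947956, minus strand) held a CTCF peak and no RAD21 peak in any library, and ZNF317 (chr19:9140147-9140446, plus strand) held a PDS5A peak only. ZNF420 (chr19:37078183-37078482, plus strand) held a PDS5A peak outside RAD21 peaks of the clone D7 DMSO list. Its window lies at a listed start inside the gene, and the peak counts as interior. ZNF101 (chr19:19668589-19668888, plus strand; summit of clone A2) and ZNF229 (chr19:44448423-44448722, minus strand; summit of clone D7) held RAD21 after DMSO in both clones and after dTAGV-1 in neither. ZNF529 (chr19:36605208-36605507, minus strand; summit of clone A2) held 4 RAD21 peaks over both DMSO lists, and the peak at its start also counts for its neighbour ZNF382.
ZNF256: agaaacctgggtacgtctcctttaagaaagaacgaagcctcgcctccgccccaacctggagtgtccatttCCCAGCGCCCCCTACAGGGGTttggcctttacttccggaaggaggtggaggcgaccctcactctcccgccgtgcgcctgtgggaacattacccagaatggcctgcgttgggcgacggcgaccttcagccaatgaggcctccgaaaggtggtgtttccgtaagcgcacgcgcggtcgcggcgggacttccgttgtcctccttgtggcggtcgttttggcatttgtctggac
ZNF317: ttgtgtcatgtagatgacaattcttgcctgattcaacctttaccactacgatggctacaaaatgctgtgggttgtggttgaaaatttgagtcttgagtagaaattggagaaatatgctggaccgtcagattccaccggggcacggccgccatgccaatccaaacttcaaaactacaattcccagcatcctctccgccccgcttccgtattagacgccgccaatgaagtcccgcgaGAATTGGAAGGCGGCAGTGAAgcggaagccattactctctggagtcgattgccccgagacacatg
ZNF420: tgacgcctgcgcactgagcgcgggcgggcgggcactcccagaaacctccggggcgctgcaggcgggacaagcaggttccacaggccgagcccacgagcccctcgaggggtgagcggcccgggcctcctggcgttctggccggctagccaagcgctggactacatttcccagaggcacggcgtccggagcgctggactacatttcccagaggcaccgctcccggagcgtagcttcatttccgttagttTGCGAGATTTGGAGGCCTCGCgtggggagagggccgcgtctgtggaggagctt
ZNF101: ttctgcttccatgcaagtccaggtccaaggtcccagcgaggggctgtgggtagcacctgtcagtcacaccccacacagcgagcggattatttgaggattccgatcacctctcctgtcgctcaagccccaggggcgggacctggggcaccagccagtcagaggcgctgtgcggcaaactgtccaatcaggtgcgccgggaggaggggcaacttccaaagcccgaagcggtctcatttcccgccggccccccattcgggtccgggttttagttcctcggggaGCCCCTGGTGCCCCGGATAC
ZNF229: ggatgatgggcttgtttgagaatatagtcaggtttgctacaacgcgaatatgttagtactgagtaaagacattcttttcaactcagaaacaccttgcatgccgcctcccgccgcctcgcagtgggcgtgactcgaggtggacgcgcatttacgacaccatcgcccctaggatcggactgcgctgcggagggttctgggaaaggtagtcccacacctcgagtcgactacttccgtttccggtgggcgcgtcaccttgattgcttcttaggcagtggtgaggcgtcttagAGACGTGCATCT
ZNF529: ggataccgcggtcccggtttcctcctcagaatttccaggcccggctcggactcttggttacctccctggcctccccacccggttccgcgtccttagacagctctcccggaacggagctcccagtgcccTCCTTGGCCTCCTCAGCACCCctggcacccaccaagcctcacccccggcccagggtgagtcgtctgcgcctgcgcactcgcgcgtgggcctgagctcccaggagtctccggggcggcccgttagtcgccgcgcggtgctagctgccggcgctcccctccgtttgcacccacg

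At their ends, zinc finger genes held PDS5A less often than other genes of the chromosome. For CTCF, STAG1, STAG2 and RAD21 after DMSO the interval of the difference included 0. CTCF lay at an end of 68 of 240 zinc finger genes (28.3%), against 34.0% of the other genes and 33.1% of all 1451. The difference was -5.69 percentage points, with an interval from -11.7 to 0.864. RAD21 after DMSO lay at an end of 20.4% of zinc finger genes in clone A2 (other genes 22.5%, all genes 22.1%) and of 26.3% in clone D7 (other genes 23.9%, all genes 24.3%), and both intervals of the difference included 0. STAG1 lay at 21.3% (other genes 17.7%, all genes 18.3%) and STAG2 at 2.92% (other genes 6.03%, all genes 5.51%). PDS5A lay at the ends of 22.1% of zinc finger genes and 31.4% of other genes (all genes 29.8%), a difference of -9.30 points (-14.8 to -3.08). At 4 h of dTAGV-1 in clone A2, RAD21 lay at the ends of 3.33% of zinc finger genes and 7.84% of others (all genes 7.10%), a difference of -4.51 points (-6.83 to -1.11). Peak strength and gene length changed these calls. With only peaks of −log10 q of at least 10, RAD21 after DMSO differed by -9.11 points in A2 (-12.3 to -4.85) and -6.08 in D7 (-10.3 to -0.919). In genes of 10 to 50 kb STAG2 differed by -5.20 points (-8.00 to -1.32). The width counted as an end changed the calls too. Within 2.5 kb the intervals for CTCF, RAD21 after DMSO in both clones and STAG2 also lay below 0, with differences of -15.3, -10.4 (A2), -7.07 (D7) and -5.90 points. Within 0.5 kb the PDS5A difference was -4.39 points (-9.25 to 1.33), while RAD21 of clone D7 and STAG1 were higher at zinc finger genes by 7.55 (2.33 to 13.5) and 6.43 points (1.81 to 11.9).

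A split of the ends by strand, known for 210 zinc finger genes and 975 others, showed that almost all of these peaks lay at the start. CTCF summits lay within 1 kb of the start of 58 of 210 zinc finger genes (27.6%; all genes 27.8%) and within 1 kb of the far end of 4 (1.90%; all genes 10.3%). Among the other genes the shares were 27.8% and 12.1%. RAD21 after DMSO lay at the start of 39 zinc finger genes in clone A2 (18.6%; all genes 18.1%) and of 56 in clone D7 (26.7%; all genes 20.4%). At the far end it lay at 2 zinc finger genes in each clone (0.952%), where all genes gave 6.41% and 7.17%. Those 2 genes were ZNF653 and ZNF574, named here after their values were seen. STAG1 lay at 45 starts (21.4%; all genes 15.5%) and 1 far end (all genes 4.64%), and PDS5A at 43 starts (20.5%; all genes 24.6%) and 6 far ends (2.86%; all genes 11.1%). STAG2 lay at 6 starts (2.86%; all genes 3.63%) and at no far end (all genes 2.28%).

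Start shares of RAD21 in clone D7 and of STAG1, which came from the same clone, were higher at zinc finger genes than at other genes by 7.59 points (1.49 to 14.4) and by 7.17 points (1.64 to 13.5). Stronger peaks did not show this: with only peaks of −log10 q of at least 10 the differences were -2.01 and -0.154 points. In genes of 10 to 50 kb they were 4.28 (-2.99 to 12.3) and 5.23 points (-1.47 to 12.9), so that both intervals included 0. In clone A2 the difference was 0.520 points, and -5.12 with the stronger peaks alone. CTCF differed at starts by -0.176 points and PDS5A by -5.06, both with intervals that included 0.

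**Figure D1:**
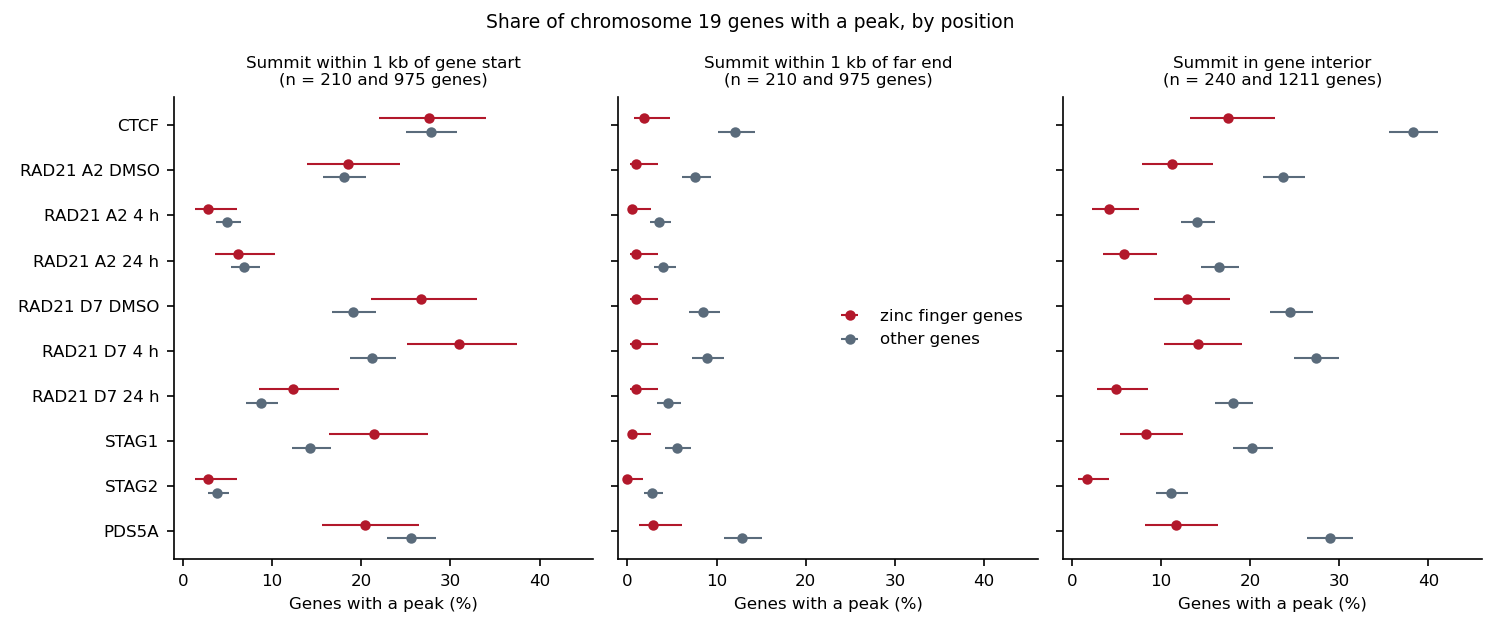
Share of genes with a peak summit within 1 kb of the start, within 1 kb of the far end or in the interior (x axes, percent) in each of 10 lists (y axis), for zinc finger genes (red) and other protein-coding genes of chromosome 19 (grey). Bars are 95% Wilson intervals. CTCF lies at 27.6% and 27.8% of starts, and in the interior of 17.5% and 38.3% of genes.

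Within 20 kb of the start the CTCF signal of zinc finger genes stood above a low surrounding density. There were 15.2 CTCF summits per 100 zinc finger genes in the 1 kb before the start and 13.8 in the 1 kb after it, and 0.952 in the next 1 kb inside the gene. For other genes the same bins held 16.4, 12.7 and 5.54 summits per 100 genes. RAD21 of clone D7 after DMSO gave 11.4, 15.2 and 1.90 for zinc finger genes. RAD21 summits after DMSO and STAG1 summits also lay closer to the start at zinc finger genes. In the clone D7 DMSO list the median distance was 160 bp for 56 summits at zinc finger genes and 323 bp for 195 at other genes. Clone A2 after DMSO gave 177 and 384 bp, STAG1 172 and 306 bp and CTCF 292 and 389 bp. The order was opposite, with 6 summits each at zinc finger genes, for RAD21 of clone A2 at 4 h (632 and 539 bp) and for STAG2 (619 and 429 bp).

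**Figure D2:**
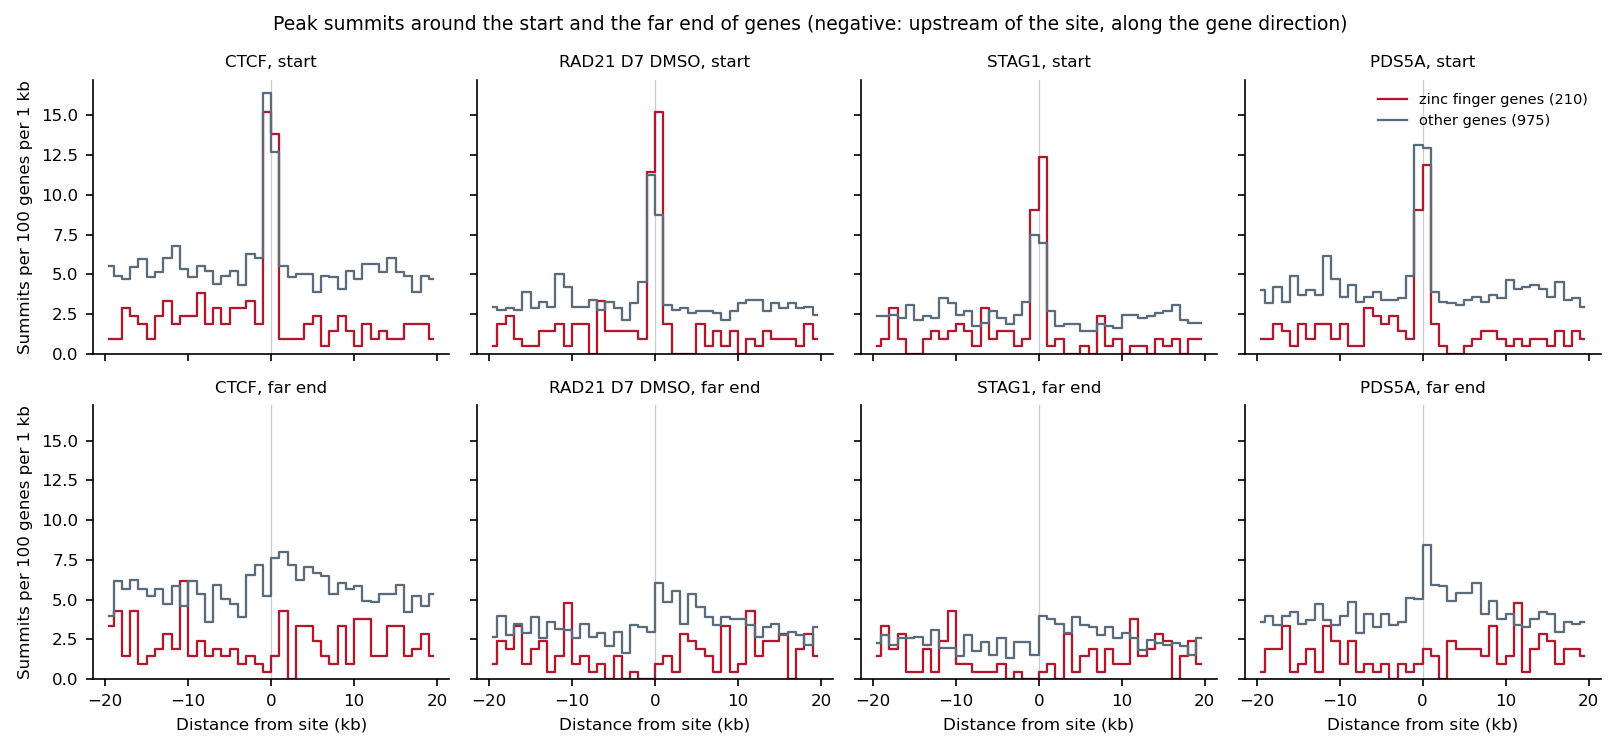
Peak summits per 100 genes in 1 kb bins (y axes) by distance from the gene start (upper row) and from the far end (lower row), in kb, negative before the site along the direction of the gene. Red lines are 210 zinc finger genes and grey lines 975 other genes. CTCF summits of zinc finger genes reach 15.2 per 100 genes just before the start, while just before the far end there are 0.476.

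The interiors of zinc finger genes were sparse in every list. CTCF gave 63 interior peaks over 6.54 Mb, or 0.964 per 100 kb (0.741 to 1.23), against 3.81 per 100 kb in other genes, a ratio of 0.253 (0.193 to 0.327). RAD21 after DMSO gave ratios of 0.268 in clone A2 and 0.284 in clone D7. STAG1 gave 0.225, PDS5A 0.206 and STAG2 0.156, the last from 7 peaks. Counted by gene, 17.5% of zinc finger genes held an interior CTCF peak, 38.3% of the other genes and 34.9% of all. Some of the interior peaks lay at a second listed start inside the gene: of 35 interior RAD21 peaks of the clone D7 DMSO list in genes with listed starts, 16 lay within 1 kb of one, and of 59 CTCF peaks 10 did. Without ZNF536, the longest member, the 3 ratios for CTCF and RAD21 were 0.247, 0.256 and 0.290.

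Peaks at zinc finger genes were also weaker by the authors' fold enrichment, which is comparable only within a list. The median fold of CTCF peaks was 8.28 at zinc finger genes and 15.2 at other genes. For RAD21 after DMSO the medians were 5.78 and 12.1 (A2 DMSO) and 4.32 and 9.52 (D7 DMSO), and for STAG1 4.50 and 10.0. STAG2 differed from these lists, with 13 peaks at zinc finger genes of median fold 10.9 against 10.7 at other genes. Weak peaks were not general to the class: ZNF554 held the CTCF peak of highest fold among the members, 165, with its summit at -97 bp from the start, and was chosen for that value.

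Fewer of the RAD21 peaks at zinc finger genes overlapped a wild-type CTCF peak. In clone A2 after DMSO 57 of 82 did (69.5%), against 87.8% of 691 peaks at other genes, lower by a difference of -18.3 points (-29.2 to -9.04). D7 gave 56 of 95 (58.9%) against 85.4%, a difference of -26.5 points (-36.8 to -16.7). Split by position in clone D7, 54.1% of 61 gene-end peaks and 67.6% of 34 interior peaks of zinc finger genes overlapped CTCF, and 78.6% and 89.5% of those of other genes. Among stronger peaks alone, at −log10 q of at least 10, CTCF overlapped 97.5% of the zinc finger gene peaks in clone A2 and 98.5% of those at other genes, which differ by -0.996 points (-11.4 to 1.51). Clone D7 gave 83.7% at zinc finger genes against 94.8%, or -11.2 points (-23.9 to -3.07). CTCF came from wild-type cells and not from the clones, and its library was size-selected and made with another kit.

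RAD21 peaks at zinc finger genes were also less often overlapped by STAG1, STAG2 and PDS5A than those at other genes. Of the clone D7 DMSO RAD21 peaks at zinc finger genes 54.7% overlapped STAG1, 12.6% STAG2 and 50.5% PDS5A, and at other genes 68.2%, 30.7% and 81.5%. A −log10 q of at least 10 was reached by 51.6% of these RAD21 peaks at zinc finger genes and 83.3% at other genes. These overlaps were not split by peak strength. The STAG1 difference of -13.4 points was -21.4 among interior peaks (-37.9 to -4.91) and -5.35 at gene ends (-19.0 to 7.67). STAG1 without STAG2 was found at 57 zinc finger genes (23.8%) and at 17.2% of other genes, both subunits at 11 (4.58%) and 16.1%. No zinc finger gene held STAG2 without STAG1, and only 6 of the 1211 other genes did (0.495%). Of all 1451 genes 32.5% held STAG1 and 14.6% STAG2. Background pileup, a measure of depth, was 1.77 for STAG1 and 3.14 for STAG2, and STAG2 had 468 peaks on chromosome 19 against 940, and the part of these gaps in the gene counts was not tested. WAPL had 98 peaks on the chromosome and 0 of 240 zinc finger genes held one (upper bound 1.57%; all genes 3.24%). HA, labelled HA-NIPBL in the peak names, had 0 peaks on chromosome 19 of 230 in all (0 of 1451 genes).

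RAD21 at zinc finger genes was then compared before and after degradation of NIPBL. In clone A2, 71 zinc finger genes held a RAD21 peak after DMSO, 17 at 4 h of dTAGV-1 and 29 at 24 h (of all genes 38.1%, 18.4% and 22.3%). For D7 the numbers were 88, 105 and 41 (of all genes 40.2%, 45.1% and 26.2%). The number at 4 h was thus lower than after DMSO in A2 and higher in D7, and at 24 h it was lower in both. Background pileup was 1.87, 3.16 and 2.83 in A2, then 3.00, 4.05 and 3.07 in D7, in the same order. It was thus higher after dTAGV-1 than after DMSO in clone A2 and highest at 4 h in clone D7. Its part in these gene numbers was not tested. With all lists scaled to 1.87 the clone D7 ratio of 4 h to DMSO was 0.904 instead of 1.19, and with peaks of −log10 q of at least 10 it was 0.911. In clone A2 the 4 h ratio was 0.239 as deposited and also at equal depth, and 0.515 with stronger peaks. Other genes moved the same way at 4 h, with ratios of 0.519 in A2 and 1.11 in D7. The lists were called per library with no spike-in factor applied here, so a change of total occupancy that leaves calls in place would not be seen.

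Loss of the last RAD21 peak from a gene was more frequent among zinc finger genes. In clone A2 at 4 h, 54 of 71 lost it (76.1%), against 48.5% of 482 other genes and 52.1% of all, a difference of 27.5 points (15.5 to 37.0). At 24 h 43 of 71 had none (60.6%; other genes 40.0%, all 42.7%). In clone D7 19 of 88 lost it at 4 h (21.6%; other genes 11.3%, all 12.8%) while 36 of the 152 zinc finger genes without a DMSO peak gained one (23.7%; other genes 15.4%, all 16.8%), and at 24 h 50 of 88 had none (56.8%; other genes 35.1%, all 38.4%). The gains in clone D7 at 4 h were not recounted at equal depth. The number of DMSO peaks per gene, on which the losses depend, was not matched. Zinc finger genes held 85 gene-peak pairs at 71 genes in A2 and 100 at 88 in D7. Other genes held 453 interior pairs alone at 482 genes in A2, where 272 genes also or only held an end peak. In D7 they held 466 at 496 genes, where 289 held an end peak. Fewer DMSO peaks of zinc finger genes were retained by overlap, though for D7 at 4 h the interval of the difference included 0. Clone A2 retained 26.8% of 82 at 4 h (other genes 43.7%, difference -16.9 points, -26.1 to -5.79) and 39.0% at 24 h (50.7%, -11.6, -22.1 to -0.183). Clone D7 retained 76.8% of 95 at 4 h (80.0%, -3.13, -13.0 to 4.83) and 41.1% at 24 h (56.2%, -15.1, -25.2 to -4.44).

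These differences moved with peak strength. Split by the fold of the DMSO peak, 0 of 29 zinc finger gene peaks with a fold under 5 were retained in clone A2 at 4 h, 5 of 31 between 5 and 10 and 17 of 22 (77.3%) at 10 or more. Other genes gave 1.79%, 7.22% and 74.3% in the same classes. At 24 h in clone A2 the zinc finger gene peaks gave 13.8%, 25.8% and 90.9%, and other genes 4.46%, 18.0% and 80.5%. In clone D7 at 24 h they gave 25.5%, 45.0% and 80.0%, and other genes 16.6%, 37.0% and 87.6%. Of these 12 class comparisons, counting both times and clones, 11 had an interval of the difference that included 0. The exception was clone D7 at 4 h under a fold of 5, where 69.1% of zinc finger gene peaks and 50.3% of others were retained, a difference of 18.8 points (3.85 to 31.7).

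Peaks without CTCF were retained less often than those with CTCF in both clones. At zinc finger genes in clone A2 at 4 h, 21 of 57 CTCF-overlapping peaks (36.8%) and 1 of 25 CTCF-free peaks (4.00%) were retained. In clone D7 at 24 h it was 33 of 56 (58.9%) and 6 of 39 (15.4%). CTCF overlap went with peak strength. With a −log10 q of at least 10, CTCF overlapped 97.5% of 40 zinc finger gene DMSO peaks in A2 and 83.7% of 49 in D7. The CTCF split was not made within classes of fold, so the part of peak strength in it was not tested. CTCF-free peaks at zinc finger genes were retained more often than those at other genes in clone A2 at 24 h. There 5 of 25 (20.0%) were retained against 2 of 84 (2.38%; difference 17.6 points, 5.02 to 36.8). The same held in clone D7 at 4 h, with 26 of 39 (66.7%) against 47 of 105 (44.8%; 21.9 points, 3.55 to 37.6). These peaks were not matched for strength. At the remaining times the intervals of that difference included 0.

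**Figure D3:**
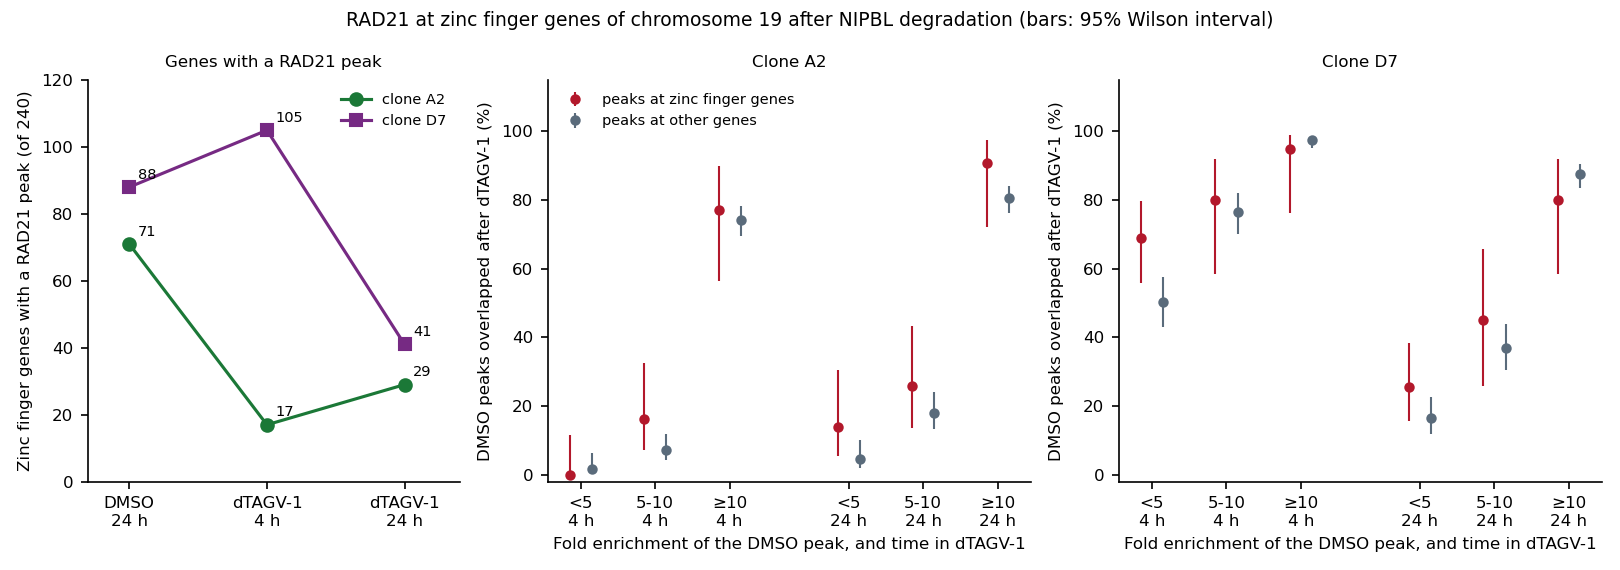
Left, number of zinc finger genes with a RAD21 peak (y axis, of 240) after DMSO and at 4 h and 24 h of dTAGV-1 in both clones, 1 library per point. Middle and right, share of DMSO peaks overlapped by a peak after dTAGV-1 (y axes, percent) by fold class of the DMSO peak and time, for zinc finger genes (red) and other genes (grey), with 95% Wilson intervals. In clone A2 at 4 h none of 29 weak peaks and 77.3% of the strongest were retained.

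RAD21 was in all 6 libraries at 14 zinc finger genes (5.83%), against 226 other genes (18.7%). At 8 of these 14 a gene-end peak was present in all 6 (3.33% of zinc finger genes), against 84 other genes (6.94%). RAD21 was in both DMSO libraries at 55 zinc finger genes (22.9%) and 436 other genes (36.0%). These counts were not matched for the number or strength of DMSO peaks. In both DMSO libraries but in none of the 4 dTAGV-1 libraries it was found at 7 zinc finger genes (2.92%; other genes 2.48%). RAD21 in the clone D7 4 h library alone was found at 29 (12.1%; other genes 6.36%). That list had the highest background pileup of the 6, 4.05. At equal depth it gave 75 zinc finger genes with a RAD21 peak instead of 105. The genes with a peak in that list alone were not recounted at equal depth. At 105 zinc finger genes (43.8%; other genes 47.7%, all 47.1%) no RAD21 library had a peak. CTCF lay without any RAD21 peak at 19 (7.92%; other genes 12.1%, all 11.4%), and both intervals of the difference included 0.

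Among the 8 genes with a gene-end peak in all 6 libraries, ZNF329 (chr19:58126248-58155104) held the highest fold in clone D7. Its RAD21 peak, with the summit at -117 bp from the gene start in that library, had a fold of 49.3, 21.8 and 22.4 in clone A2 after DMSO, 4 h and 24 h. In clone D7 the folds were 67.1, 73.4 and 36.9. The same position held CTCF at 100.5, PDS5A at 113, STAG1 at 40.2 and STAG2 at 10.9. ZNF329 thus carried every protein profiled in the clones and in wild-type cells other than HA and WAPL.

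ZNF491 (chr19:11798523-11808503) and ZNF20 (chr19:12131350-12140350) lie in the same cluster and showed a like arrangement, with all lists other than HA and WAPL placing a summit about 1 kb before the start. For ZNF491 the CTCF summit was at -912 bp with a fold of 74.6, and for ZNF20 at -968 bp with 53.8. RAD21 of ZNF491 was 58.5, 31.4 and 48.3 in A2 and 36.1, 47.6 and 44.8 in D7, in the order DMSO, 4 h, 24 h. RAD21 of ZNF20 was 35.4, 16.9 and 22.8 in A2 and 30.3, 20.3 and 17.4 in D7. ZNF491 also held the highest STAG2 fold of the members, 44.2, against 13.4 at ZNF20. ZNF865 (chr19:55605647-55617269) had its peak at 713 bp after the start in clone D7, with RAD21 folds of 16.6, 8.72 and 14.3 in A2 and 29.7, 26.5 and 17.0 in D7, and CTCF at 86.4.

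ZNF653 (chr19:11483429-11505839) differed from these in that its peak lay beyond the far end, 23089 bp from the start in the clone D7 DMSO list. RAD21 there was 39.6, 6.39 and 7.18 in A2 and 27.4, 17.8 and 7.49 in D7, lower after dTAGV-1 in each library than after DMSO of the same clone. CTCF reached 111 and STAG1 24.8, and no STAG2 peak was listed. A second site inside the gene, 9300 bp from the start, had folds of 26.5, 4.70 and 6.38 in A2 and 29.3, 16.9 and 5.84 in D7. Folds of different libraries are scaled to their own background, so these sequences are descriptions of each list.

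RAD21 peaks after DMSO were most numerous at ZNF536, with 6 over both clones, and ZNF69, with 5. Another 6 genes held 4, namely ZNF331, ZNF529, ZNF577, ZNF653, ZNF765 and ZNF83. ZNF536 (chr19:30225592-30713586), a member outside the clusters and 487995 bp long, is the longest member and held 24 peaks over all lists. All lay inside the gene, and all but 1 in its distal part, between 424568 and 457588 bp from the start. ZNF69 (chr19:11887782-11980222) overlaps ZNF763 and contains ZNF700, and 1 of its RAD21 sites counts also for each of these. Its main site lay 36056 bp inside the gene, with RAD21 at 39.8, 21.4 and 46.1 in A2 and 63.5, 59.7 and 53.1 in D7. ZNF577 (chr19:51804442-51887951) held a pair of CTCF and RAD21 sites 77.5 and 79.2 kb from its start in all 6 libraries, and the only STAG2 peak outside STAG1 peaks among the members, with a fold of 6.76.

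Of the 7 genes with RAD21 after DMSO in both clones and after dTAGV-1 in neither, the 5 with the highest fold in D7 are given. ZNF417 had a fold of 6.90 in clone A2 and 8.72 in clone D7, with CTCF at 24.0. ZNF229 had 3.03 and 4.27, STAG1 at 4.00 and no CTCF peak. ZNF101 had 4.67 and 3.74 and ZNF837 5.20 and 3.18, the latter with CTCF at 2.59 at its start. ZNF610 had 8.74 and 3.15, with CTCF at 13.4. All of these folds lie below the medians of RAD21 peaks at other genes given above, 12.1 and 9.52. Against the medians at zinc finger genes, 5.78 and 4.32, ZNF417 was higher in both clones and ZNF610 in clone A2, and the other values were lower.

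CTCF lay without RAD21 in any library at ZNF581 (fold 32.5), ZNF256 (29.2) and ZNF568 (27.3), the highest of 19. The peak of ZNF568 is shared with its neighbour ZNF829, which therefore has the same value. PDS5A lay at 76 zinc finger genes (31.7%; all genes 45.7%), and at 34 of the 240 outside the clone D7 DMSO RAD21 peaks (14.2%; other genes 23.7%, all 22.1%), led by ZNF317 (14.8), ZNF420 (5.99) and ZNF260 (5.61). At ZNF317 it was the only peak in any of the 12 lists. STAG1 lay outside STAG2 peaks at 58 zinc finger genes (24.2%; other genes 22.4%, all 22.7%), with the highest folds at ZNF653 (24.8), ZNF536 (15.9) and ZNF114 (12.7). The longest members with no peak in any list were ZNF91 (90468 bp), ZNF676 (81216 bp) and ZNF730 (72011 bp), which lie in the same cluster.

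**Figure D4:**
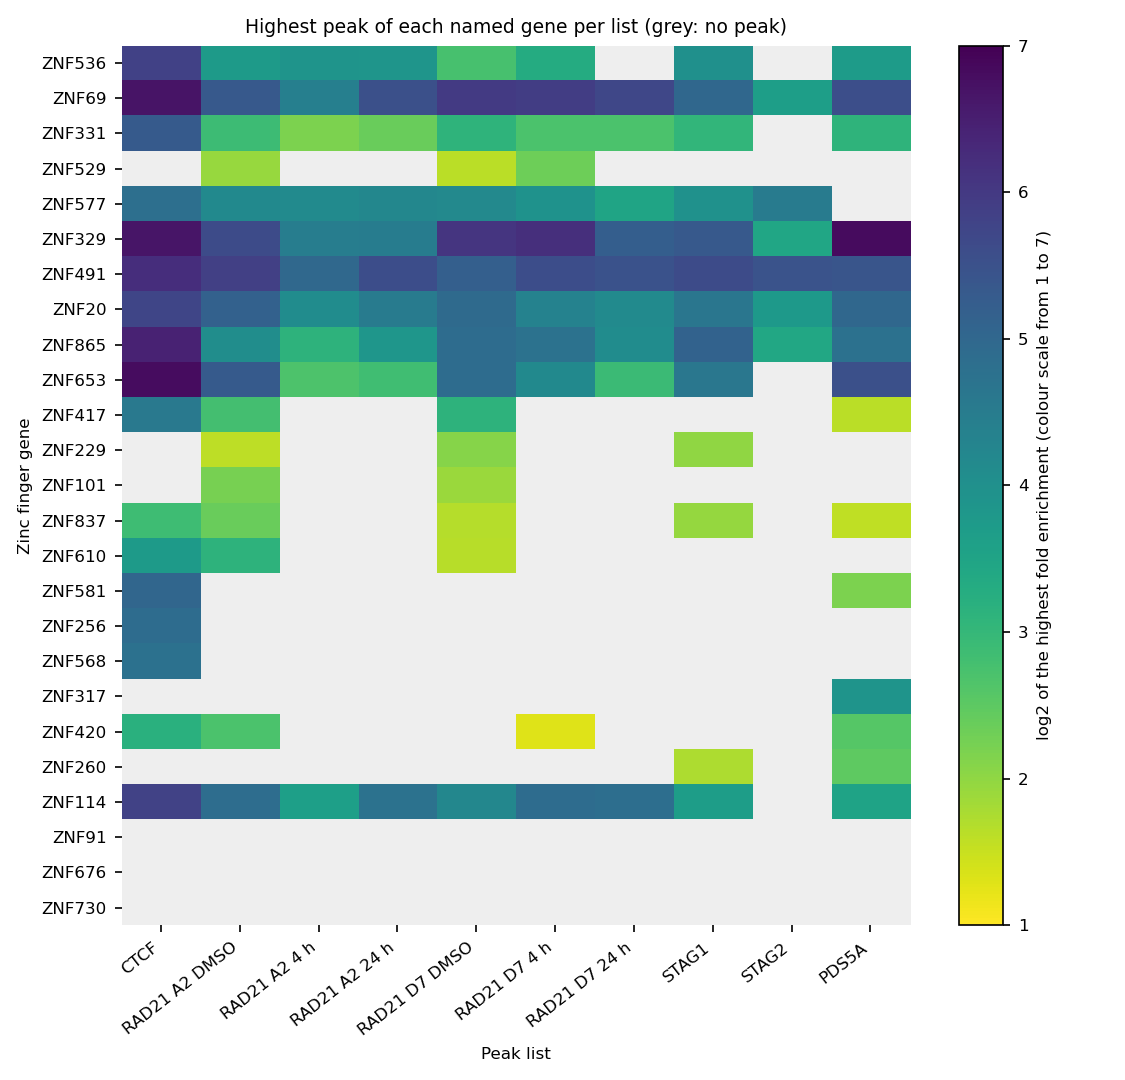
Highest fold enrichment of any peak of each named zinc finger gene (y axis) in each of 10 lists (x axis), as log2 on a colour scale from 1 to 7, grey where no peak was listed. Folds are comparable only within a list. ZNF329, ZNF491, ZNF20, ZNF865 and ZNF69 have a peak in every column, and ZNF91, ZNF676 and ZNF730 in none.

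The genes formed 10 clusters of at least 5 members with gaps of at most 500 kb, which held 228 of the 240, and occupancy differed between them. The cluster from ZNF101 to ZNF254 spans 4.46 Mb with 37 members and had the lowest share of genes with CTCF of the 10. CTCF lay at 5 of its genes (13.5%; all genes of the chromosome 54.2%), RAD21 at 4 in clone A2 and 8 in clone D7 after DMSO, and after 4 h of dTAGV-1 at 0 and 12. Its span held 5.83 CTCF peaks per Mb, where chromosome 19 held 34.4. At the other extreme, the cluster from ZNF653 to ZNF791 held 25 members over 1.15 Mb, and its 35.6 CTCF peaks per Mb were close to the chromosome's value. There CTCF and clone D7 RAD21 after DMSO each lay at 16 genes (64.0%; all genes 54.2% and 40.2%). RAD21 in clone A2 at 4 h lay at 5 (20.0%), near the 18.4% of all genes.

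STAG1 did not follow RAD21 in each cluster. Between ZNF575 and ZNF180 it lay at 11 of 23 genes (47.8%) where RAD21 of the same clone after DMSO lay at 7, and STAG2 at 0. These calls were weak, with highest folds per gene of 2.73 to 5.12 for STAG1 and 2.80 to 6.81 for RAD21. Background pileup was 1.77 for STAG1 and 3.00 for that RAD21 list, and its part in the gene counts was not tested. Between ZNF414 and ZNF846 it lay at 0 of 13 genes where RAD21 lay at 5. In the cluster from ZNF264 to ZNF446, with 41 members, STAG1 lay at 17 genes and STAG2 at 1, and RAD21 after DMSO at 10 in clone A2 and 18 in clone D7. The cluster from ZNF175 to ZNF331 showed the opposite order, with RAD21 at 16 of 39 genes in clone A2 and 12 in clone D7. Of all genes of the chromosome 32.5% held STAG1, 14.6% STAG2 and 38.1% (A2) and 40.2% (D7) RAD21 after DMSO.

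**Figure D5:**
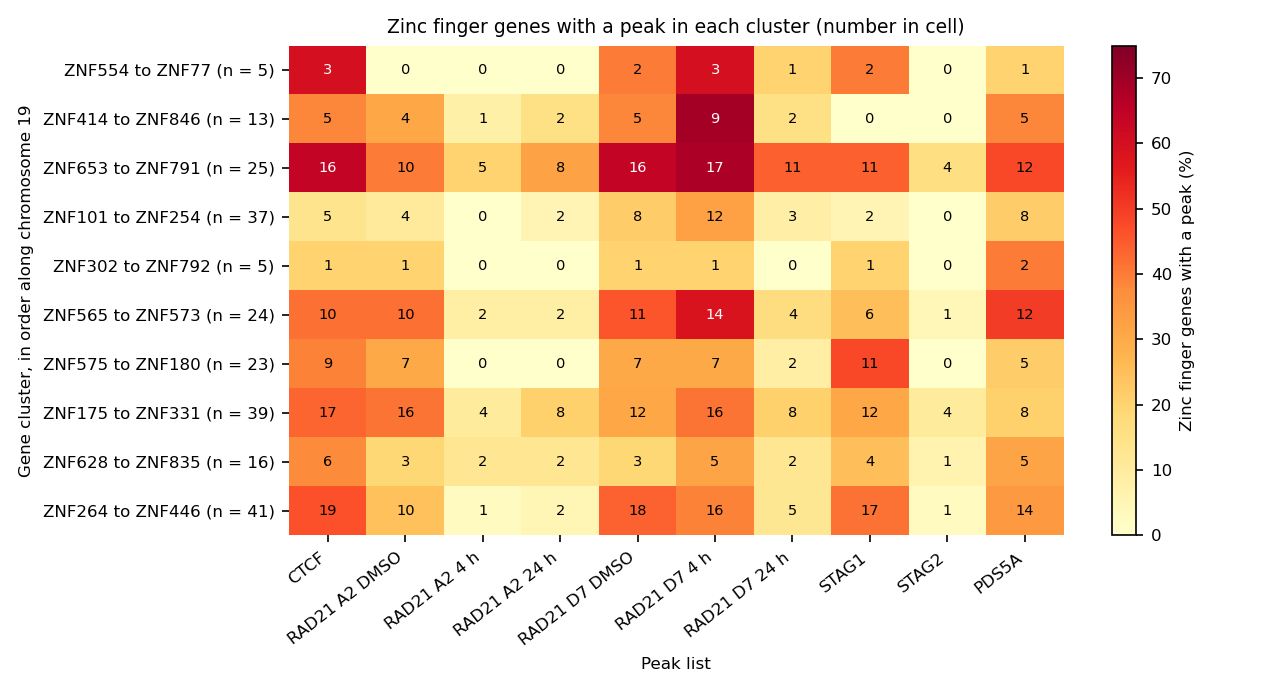
Share of zinc finger genes with a peak (colour, percent) in each of the 10 clusters (y axis, in order along chromosome 19, with the number of genes) and in 10 lists (x axis); the number in a cell is the count of genes. The cluster from ZNF101 to ZNF254 has 5 of 37 genes with CTCF, and that from ZNF653 to ZNF791 has 16 of 25.

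Promoter letters were searched on both strands in 1 listed window of 300 bases per gene. A full CTCF consensus sequence was in 0 of 210 zinc finger promoters and 1 of 975 others. The letters GGNGGCAG in which it ends, searched after the data were seen, were in 20 zinc finger promoters (9.52%, 6.25 to 14.3) and 20.4% of the others (18.5% of all). A second form of the CTCF core, AGNGGGCG, was chosen after the sequence of ZNF256 had been read. It was in 60 zinc finger promoters (28.6%, 22.9 to 35.0), in 23.3% of the others and in 24.2% of all, and 56 of all 1185 windows held both forms. Where a CTCF summit lay in the window, AGNGGGCG was in 9 of 19 zinc finger promoters (47.4%) and 53.4% of 73 others. ZNF256, from which this form was read, is among these 9. GGNGGCAG was in 0 of the 19 and 21.9% of the others. Where no CTCF summit lay within 1 kb of the start, AGNGGGCG was in 25.5% of 149 zinc finger promoters and 19.1% of 707 others. Median GC content was 60.2% in zinc finger promoters and 64.0% in the others.

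In the sequences printed above, AGNGGGCG lies on the opposite strand at bases 76 to 83 of the ZNF256 window, under the CTCF summit at base 81, and on the printed strand at bases 120 to 127 of ZNF229, away from its summit at base 299. GGNGGCAG lies at bases 245 to 252 of the ZNF317 window, under the PDS5A summit at base 246, where the CTCF list had no peak. The windows of ZNF420, ZNF101 and ZNF529 held neither form. Compared by edit distance over the 300 bases, a zinc finger promoter had a median identity of 56.0% with its closest relative among the members, 30 of 210 had a relative of at least 80% and none was identical to another. How reads that fit several copies were treated is not given in the sources used here, and its part in the low counts inside these genes was not tested.

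Genes of the repression machinery that works with KRAB proteins were read genome-wide for comparison: TRIM28, SETDB1, ATF7IP, CBX1, CBX3, CBX5, TASOR, MPHOSPH8, PPHLN1, MORC2, ATRX and DAXX, 12 genes in all. CTCF lay at an end of 3 of them, RAD21 after DMSO at 2 in clone A2 and 3 in clone D7, STAG1 at 3, STAG2 at 1 and PDS5A at 4. Of the 20056 protein-coding genes of all chromosomes, 36.5% held an end peak of CTCF, 29.4% and 32.1% of RAD21 in clones A2 and D7, 28.0% of STAG1, 7.17% of STAG2 and 36.1% of PDS5A. ATF7IP, the cofactor of SETDB1, held RAD21 in all 6 libraries, with folds of 11.0, 4.86 and 5.21 in A2 and 9.69, 5.36 and 5.12 in D7. SETDB1 held CTCF at 4.25 and RAD21 in clone A2 after DMSO at 3.28. TRIM28, which lies on chromosome 19 itself, held no gene-end peak in any list. The gene starts at 58544064, and the last peak of the chromosome over all lists ended at 58.52 Mb, before it. The absence therefore covers the whole end of the chromosome and is not particular to TRIM28.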

How the data were processed

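Peak lists of 12 immunoprecipitations in narrowPeak layout were used, as the authors deposited them. The submitters' processing notes name BWA, Picard, SAMtools, bedtools, deepTools and MACS2 and the builds hg38 and mm10, with no role or version. In the lists the authors deposited, the score column is 10 times the −log10 q as a whole number. The fold enrichment of the summit over local background is a ratio the authors deposited. The −log10 p and −log10 q of each peak are the values the authors deposited. Peak names carry a q cutoff of 0.001 for CTCF and 0.01 for the others, and each list names 1 immunoprecipitation.

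Summits were placed in RefSeq genes of GRCh38.p14 with Python 3.11.15 and pandas 2.3.3, and the strand came from the RefSeq promoter table. Overlap meant at least 1 bp. Pileup and background were solved from fold and p under a Poisson model, which gave whole pileups for 100% of the peaks solved in 11 lists and 8.70% in HA. That background, which stands for depth, lay between 1.77 and 13.4. The scripts were tested on simulated data. Members, lists and rules were chosen with earlier results of these data known. Members named, with ties taken by symbol, are the 5 with most RAD21 peaks after DMSO (3 that tie with the last of these are also named), the 5 strongest with gene-end RAD21 in all 6 libraries and the 5 strongest with RAD21 after DMSO only, then the 3 strongest with CTCF and no RAD21, PDS5A outside RAD21, or STAG1 or STAG2 alone, the longest member and the 3 longest without a peak. Inputs were not analysed here.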

Additional observations from a re-analysis of the deposited data

Results flagged for a closer look

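The number of zinc finger genes with a RAD21 peak moved in opposite directions in the 2 clones at 4 h of dTAGV-1: the ratio to DMSO was 0.239 for A2 and 1.19 for D7. This difference between clones was not tested, since each holds 1 library per time. Other genes of the chromosome gave 0.519 and 1.11. The D7 value was 0.904 at equal depth and 0.911 at −log10 q of at least 10, below 1 as in A2.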

How the results depend on the processing

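Of the 90 alternative values computed, 58 stayed on their side and within the interval (for gene numbers, 1.5 times) of the reported value, 19 moved further and 13 changed direction; the cause was not tested. All alternatives listed were run, and those on starts, on ZNF536 and on gene numbers were chosen after seeing the data. With a gene-end window of 0.5 kb the difference in end share was 0.610 points for CTCF and 3.12 for RAD21 of clone A2, both reversed, and the intervals changed for PDS5A (-4.39, now including 0), RAD21 of clone D7 (7.55) and STAG1 (6.43, both now above 0). With 2.5 kb it was -15.3 for CTCF, -10.4 for RAD21 of clone A2, -7.07 for RAD21 of clone D7, -3.90 for STAG1, -5.90 for STAG2 and -18.9 for PDS5A, reversed for clone D7 and STAG1. At −log10 q of at least 10 it was -9.11 in A2 and reversed to -6.08 in D7, both intervals now below 0, and it reversed to -4.21 for STAG1. For starts alone it reversed to -5.12 in A2, -2.01 in D7 and -0.154 for STAG1. In genes of 10 to 50 kb it reversed to -0.194 for ends in D7 and -1.21 for starts in A2, and for starts it was 4.28 in D7 and 5.23 for STAG1, both intervals now including 0. For STAG2 at ends it was -5.20 in those genes, with an interval now below 0.

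The interior density ratio of D7 was 0.184 at the stricter q. Retention there was 55.0% in A2 at 4 h and 67.5% at 24 h. With lists of equal length it was 69.2% and 81.2% in A2 and 64.6% in D7 at 24 h, and in D7 at 4 h it was 64.2% by summits within 200 bp and 63.3% at equal depth. Against other genes, retention in A2 at 4 h then differed by 0.677 points at the stricter q and 2.04 at equal length, where the lists as deposited gave -16.9. In A2 at 24 h it turned from -11.6 to 5.28 and 13.0, and in D7 at 24 h it went from -15.1 to -14.7 and -0.517. In D7 at 4 h it went from -3.13 to -11.6 by summits and -13.5 at equal depth, both intervals now below 0. CTCF overlap of RAD21 was 97.5% in A2 and 83.7% in D7 at the stricter q, and 41.5% and 33.7% with the upper 50% of CTCF peaks. Gene numbers relative to DMSO were 0.515 at 4 h and 0.788 at 24 h in A2 at the stricter q, and reversed in D7 at 4 h to 0.911 and, at equal depth, 0.904. At equal depth A2 kept its ratios of 0.239 and 0.408 and retention of 26.8% and 39.0%. No paired analysis was possible because each group held 1 library and the labels give no replicate numbers.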
